A study of Homo sapiens with 4 samples.

Results

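Periplakin (PPL), E-cadherin (CDH1) and claudin-7 (CLDN7) are the epithelial junction and plakin genes named in the table of changed genes that the authors deposited. They were taken as the lines of that table whose symbol is CDH1, PPL, EVPL or DSP, or is KRT, CLDN, DSC, DSG or PKP followed directly by a number, and 3 of the 852 symbols in the table met this rule. The table holds no keratin, no desmocollin, no desmoglein, no plakophilin, no EVPL and no DSP, so these genes have no value here. The set is best read as 2 cell junction genes and 1 plakin gene. A gene outside the table was not measured under its name here, which says nothing about its level.

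The arrays measured total RNA of HCT116, a human colorectal carcinoma cell line, grown asynchronously. The study compared 2 SH PCAF arrays, from cells transfected with a short hairpin RNA (shRNA) against PCAF and labelled as a PCAF knock-down, with 2 SH Ctrl arrays, from cells transfected with a control shRNA and labelled wild-type. PCAF, now named KAT2B, is a lysine acetyltransferase that acetylates histones and other proteins. No line of the table carries the symbol KAT2B. Lines under the older symbol PCAF were not counted, so the knockdown was not checked here. The labels state neither the time after transfection nor whether the cells were selected or cloned. They do not say that replicates were separate cultures, so any error given here rests on the spread between arrays, which may be technical. Errors of differences also draw on the spread of all other probe sets.

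Epithelial cells are held together by several kinds of contact. Adherens junctions join neighbouring cells through E-cadherin, whose cytoplasmic tail binds catenins that connect to actin. Tight junctions seal the space between cells with claudins and occludin, held by scaffold proteins. Plakins are large cytoplasmic linkers that tie intermediate filaments, which in epithelia are keratins, to desmosomes and hemidesmosomes, and loss of E-cadherin is a familiar mark of epithelial to mesenchymal transition in colorectal and other carcinomas.

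CLDN7 was the member with windows in the RefSeq promoter table used here (GRCh38.p14), and the gene has 2 annotated starts there, on the minus strand of chromosome 17. The window of its inner start, chr17:7262429-7262728, is shown because it holds a motif often discussed for junction genes. PPL and CDH1 had no window in that source, so a motif shared with them was not tested. The sequence runs 5′ to 3′ along the gene, from 250 bases before the start to 50 bases from it, and capitals mark CACCTG and its reverse complement CAGGTG, the E-box letters bound by the SNAI and ZEB repressors of CDH1.
CLDN7 inner start: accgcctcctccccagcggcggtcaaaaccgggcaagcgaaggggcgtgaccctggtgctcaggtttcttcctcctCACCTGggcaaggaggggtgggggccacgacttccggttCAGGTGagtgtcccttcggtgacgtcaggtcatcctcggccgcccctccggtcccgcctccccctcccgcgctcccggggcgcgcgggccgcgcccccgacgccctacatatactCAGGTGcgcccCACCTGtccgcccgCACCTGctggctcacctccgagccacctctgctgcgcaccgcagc
The search of both strands found 5 such E-boxes in this window, with their first bases 174, 135, 20 and 9 bases before the start and at base 6 after it. The window of the outer start, chr17:7263164-7263463, held 0. Of all 35116 promoter windows of this length, 20.6% held at least 1 of these E-boxes and 0.094% held 5 or more. The inner window was chosen for holding the motif, so these shares are no test of it. The GC box, with the letters GGGCGG, was searched on both strands in the same way and was present in 45.0% of windows. The letters CCAAT were present on either strand in 34.6% of all windows searched. A TATA box, taken as the letters TATAAA on either strand, was present in 11.5%. None of the E-boxes overlapped any of these. The inner window of CLDN7 held 2 GC boxes on the reverse strand and neither of the others, and its outer window held 1 CCAAT box on the reverse strand. These matches describe letters in the reference sequence, and binding was not measured.

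All 3 genes were higher in SH PCAF cells, by 2.77-fold for PPL, 2.14-fold for CDH1 and 1.69-fold for CLDN7. The genes were in effect selected on this same contrast, since the table is of genes up and down in it and its up lines all have a log2 rise of at least 0.70 and a p-value of at most 0.05, so the differences of these genes describe the arrays and carry no test. Among all probe sets, 7.05% were called higher and 5.85% lower in SH PCAF cells at an adjusted p below 0.05 (limma, Benjamini-Hochberg over 33297 probe sets), and the 3 genes were among those called higher. Both SH PCAF arrays lay above both SH Ctrl arrays in 23.1% of all probe sets, and in each of the 3 genes, and below both in 36.0% of probe sets and none of the 3. With either SH Ctrl array left out, 0 of the 3 genes and 0 probe sets were called, although by limma 6848 probe sets without SH Ctrl replicate 1 and 6849 without SH Ctrl replicate 2 had an unadjusted p below 0.05, the 3 genes among them.

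E-cadherin, the adhesion receptor of adherens junctions, had log2 signals of 11.56 and 11.26 on the SH PCAF arrays, against 10.23 and 10.39 on the SH Ctrl arrays. The groups did not overlap, and the lower SH PCAF array stood 0.87 above the higher SH Ctrl array. The group means were 11.41 ± 0.213 in SH PCAF cells and 10.31 ± 0.113 in SH Ctrl cells (SD, n = 2 each), a log2 difference of 1.10 ± 0.129 (moderated SE). CDH1 had the widest spread within a group of the 3 genes, 0.30 between its SH PCAF arrays. Its log2 difference was 0.95 without SH PCAF replicate 1 and 1.25 without SH PCAF replicate 2. CDH1 lies on chromosome 16.

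Claudin-7, a tight junction membrane protein that also lies along the basolateral membrane of intestinal cells, had log2 signals of 12.75 and 12.76 on the SH PCAF arrays, against 11.96 and 12.03 on the SH Ctrl arrays. The arrays of each group lay close together, and the groups were 0.72 apart at their nearest. CLDN7 averaged 12.75 ± 0.012 in SH PCAF cells and 12.00 ± 0.047 in SH Ctrl cells (SD, n = 2 each), a log2 difference of 0.76 ± 0.069 (moderated SE). It had the smallest rise of the 3 genes and the smallest spread.

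Periplakin, a plakin of desmosomes and of the cornified envelope of squamous epithelia that binds keratin filaments, had log2 signals of 9.54 and 9.33 on the SH PCAF arrays, against 7.90 and 8.04 on the SH Ctrl arrays. The groups were 1.29 apart at their nearest, the widest gap of the 3 genes. PPL averaged 9.44 ± 0.148 in SH PCAF cells and 7.97 ± 0.098 in SH Ctrl cells (SD, n = 2 each), a log2 difference of 1.47 ± 0.104 (moderated SE). PPL also lies on chromosome 16.

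**Figure D1:**
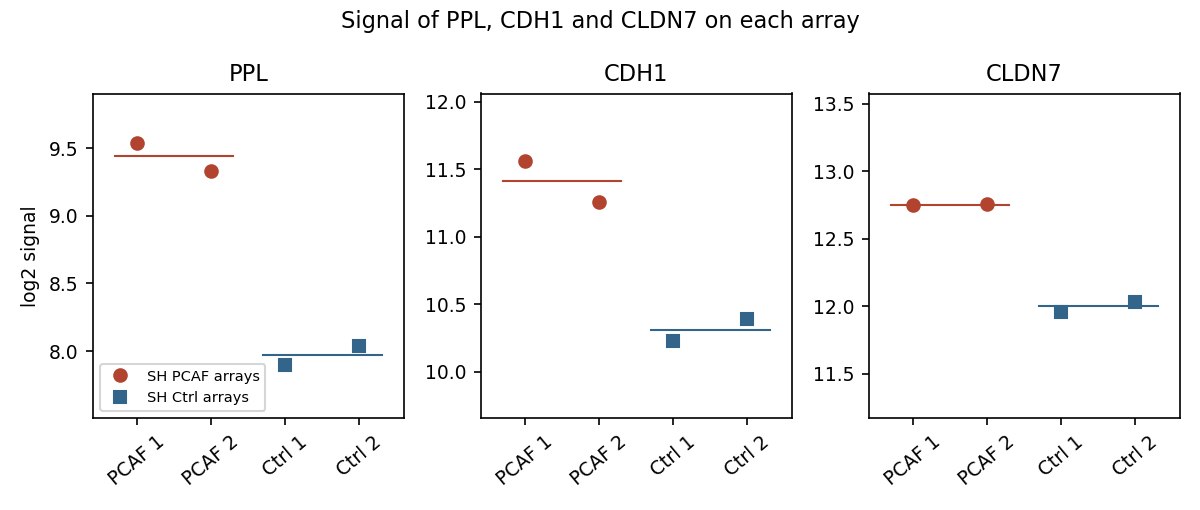
Log2 signal of PPL, CDH1 and CLDN7 on each of the 4 arrays, with SH PCAF arrays as circles, SH Ctrl arrays as squares and the mean of each group as a line. Each panel spans the same range of log2 units around its own centre, so the gap between groups can be compared by eye: it is widest for PPL (log2 difference 1.47) and narrowest for CLDN7 (0.76).

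The rises can be set side by side, with no test between genes. Over the pairings of an SH PCAF array with an SH Ctrl array, the log2 difference ran from 1.29 to 1.64 for PPL, from 0.87 to 1.33 for CDH1 and from 0.72 to 0.80 for CLDN7. The ranges of PPL and CDH1 overlapped, and that of CLDN7 lay below both. In PPL and CDH1 the SH PCAF replicate 1 array was above the replicate 2 array, while in CLDN7 these arrays were within 0.02 of each other. In all 3 genes SH Ctrl replicate 1 was below SH Ctrl replicate 2.

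Among all 33297 probe sets, 0.303% rose further than PPL, 0.886% further than CDH1 and 2.35% further than CLDN7. The median log2 difference of the 3 genes was 1.10, against 0.93 over the 522 probe sets that the table lists as up and -0.046 over all probe sets. In order of rise among the 522, PPL was at rank 74, CDH1 at rank 194 and CLDN7 at rank 436. The smallest rise in the table was 0.70, and 86 of its probe sets rose less than CLDN7. A rise of at least the smallest one in the table was found in 955 probe sets, of which 522 are in it, so the table leaves out many probe sets with rises as large.

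**Figure D2:**
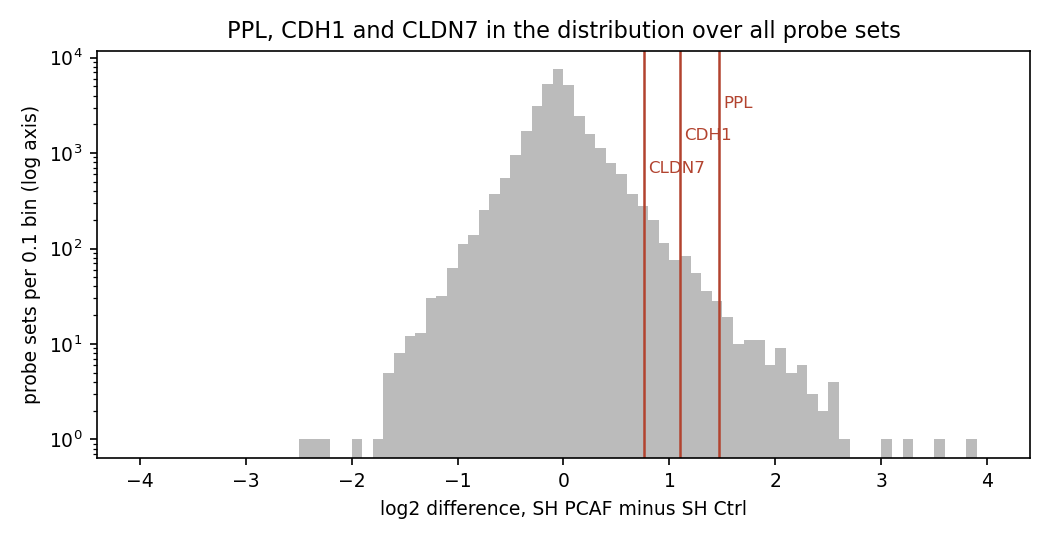
Number of probe sets (log axis) by log2 difference, SH PCAF minus SH Ctrl, over all 33297 probe sets, with lines at PPL, CDH1 and CLDN7. The 3 lines stand in the right tail, at 1.47, 1.10 and 0.76, where 0.303% to 2.35% of probe sets rose further.

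Under the heading of fold change, the authors' deposited table gives 3.15 for PPL, 2.35 for CDH1 and 1.63 for CLDN7. In the authors' deposited table this value ran at 2.14 to 2.15 times the log2 difference of the 3 genes, so it is not a fold of these signals. The authors' deposited table gave p-values of 0.0118 for PPL, 0.0437 for CDH1 and 0.0202 for CLDN7, which are selection values and no independent evidence. The largest p-value among the up lines of the authors' deposited table was 0.05, which puts CDH1 nearest to that edge of the 3 genes and CLDN7 nearest to the smallest rise.

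Other junction genes were taken from lists of the pathway. The counts below stand against a table that names 759 of the 33297 probe sets, 522 of them up and 237 down, so most of what it names is higher, and a list with a few members there, all higher, is not set apart by that. Of 15 listed adherens junction genes, 2 were in the table, CDH1 and VCL, and both were higher. Vinculin (VCL), which links cadherin complexes and integrin adhesions to actin, had log2 signals of 11.20 and 11.29 on the SH PCAF arrays, against 10.36 and 10.30 on the SH Ctrl arrays, a log2 difference of 0.91 ± 0.074 (moderated SE). The table holds 4 probe sets for 40 listed tight junction genes, each of them higher, with a median log2 difference of 0.76. TJP3, the scaffold protein ZO-3, had log2 signals of 9.84 and 9.73 on the SH PCAF arrays, against 8.97 and 9.15 on the SH Ctrl arrays. PARD6B, a polarity protein of the PAR complex that acts at tight junctions, had log2 signals of 11.36 and 11.29 on the SH PCAF arrays, against 10.57 and 10.56 on the SH Ctrl arrays. The groups of TJP3 and of PARD6B did not overlap, as in 23.1% of all probe sets in this direction. Their log2 differences were 0.72 and 0.76, which like that of CLDN7 lie close to the smallest rise in the table, 0.70. A further tight junction probe set is listed under both OCLN, the gene of occludin, and LOC647859, so it cannot be given to 1 gene, and it was higher by 0.89 ± 0.092 (log2, moderated SE). In the RefSeq promoter table, the E-box letters were present in 1 of 2 windows of TJP3 and in 2 of 2 windows of OCLN, against 20.6% of all windows. The occludin probe set is shared, and windows of the other list genes were not looked up, so no pattern is read from these counts.

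Of 7 listed plakins, PPL and a probe set listed under PLEC and LOC652460 were in the table. PLEC encodes plectin, a plakin of hemidesmosomes, and its shared probe set had log2 signals of 10.96 and 10.82 on the SH PCAF arrays, against 10.20 and 10.11 on the SH Ctrl arrays. It rose by 0.73 ± 0.084 (log2, moderated SE), against 1.47 ± 0.104 for PPL. For 8 listed hemidesmosome genes the table holds 3 probe sets, each of them higher, with a median log2 difference of 1.16. ITGA6 and ITGB4, the integrin pair that binds laminin in hemidesmosomes, were 2.23-fold and 3.51-fold higher. Each of these listed probe sets passed limma's test on all arrays, which called 7.05% of all probe sets higher. An unequal-variance test with Benjamini-Hochberg adjustment called 0 probe sets higher. As members of the same selected table the listed probe sets are no independent evidence, and the lists overlap in PLEC.

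None of 15 desmosome genes, 55 keratins or 13 gap junction genes listed was in the table. None of 20 genes of the mesenchymal transition list, which holds SNAI1, ZEB1, VIM, CDH2 and FN1, was there either. Of 21 cornified envelope genes, CSTA, which encodes the protease inhibitor cystatin A of squamous epithelia, was 3.29-fold higher. Its log2 signals were 7.86 and 7.63 on the SH PCAF arrays, against 6.11 and 5.95 on the SH Ctrl arrays. The SH Ctrl signals of CSTA were below the medians of those arrays, 7.08 and 7.10, and background was not measured. Its groups did not overlap, as in 23.1% of all probe sets in this direction. Of 21 epithelial identity genes, KLF5, a transcription factor of intestinal crypt cells, was 1.65-fold higher.

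**Figure D3:**
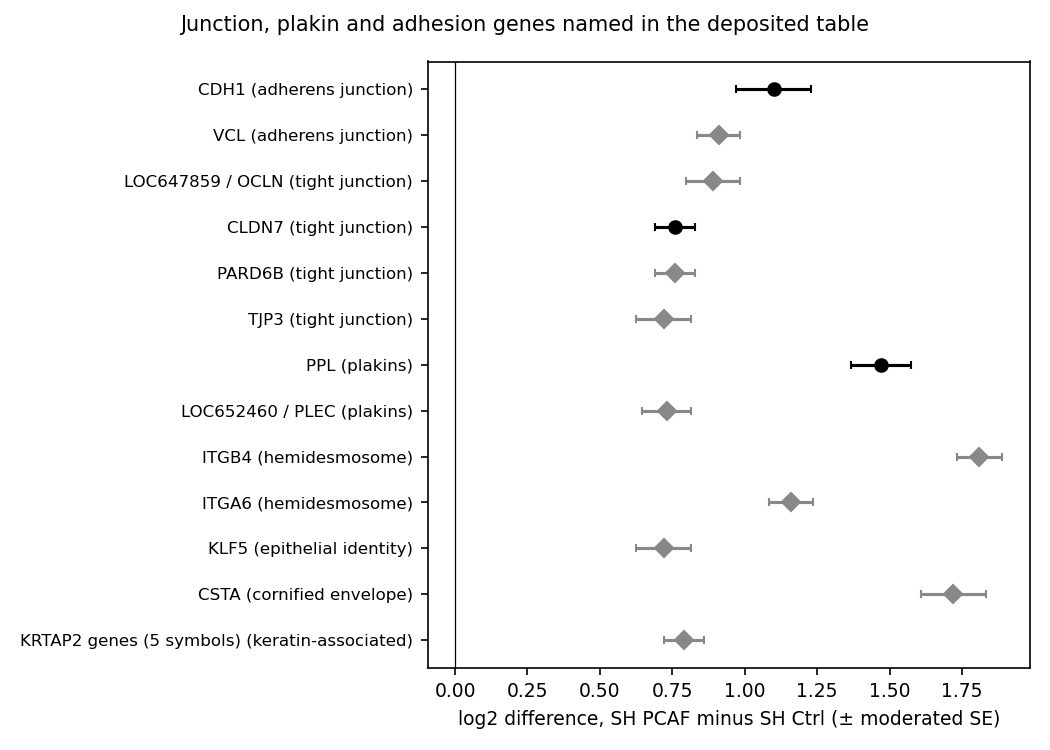
Log2 difference, SH PCAF minus SH Ctrl, with moderated SE bars, for the probe sets of the junction, plakin, hemidesmosome, epithelial identity and cornified envelope lists found in the table, and for a keratin-associated probe set. PPL, CDH1 and CLDN7 are black circles and the other genes grey diamonds. All points lie right of 0, from 0.72 for TJP3 and KLF5 to 1.81 for ITGB4.

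The label of the cells cannot be checked here, since the table names only genes that changed between the groups. CDH1, which the rule took from the table, was the 1 gene of 11 listed colon epithelial markers in it. Of 11 fibroblast markers, ACTA2 was 1.82-fold higher in SH PCAF cells and TAGLN was lower, with log2 signals of 6.66 and 6.61 on the SH PCAF arrays, against 7.42 and 7.30 on the SH Ctrl arrays. Of 9 lymphocyte markers, CD22 was 2.91-fold higher, with log2 signals of 8.33 and 8.55 on the SH PCAF arrays, against 7.01 and 6.79 on the SH Ctrl arrays. None of 9 macrophage or 8 endothelial markers was in the table, and the part of other cell types in these differences was not tested.

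The profile of the 3 genes over the arrays was set against those of 708 other probe sets with a single symbol in the table. Each profile was the log2 signal minus its own mean over the 4 arrays, and likeness was the Euclidean distance to the mean profile of the 3 genes. That mean profile stood at 0.64 and 0.47 on the SH PCAF arrays, against -0.61 and -0.49 on the SH Ctrl arrays. CDH1 lay 0.101 from it, PPL 0.362 and CLDN7 0.375. The 5 nearest other genes were PTP4A3 at 0.072, ANKRA2 at 0.084, VEGFA at 0.085, MALT1 at 0.095 and SPRY4 at 0.098. PTP4A3 encodes a phosphatase of the PRL family, VEGFA an angiogenic growth factor, MALT1 a paracaspase of NF-kB signalling and SPRY4 a feedback inhibitor of receptor tyrosine kinase signalling. Their log2 differences ran from 1.11 to 1.18, and all the probe sets compared come from the same selected table, so the likeness is a description over 4 arrays only.

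**Figure D4:**
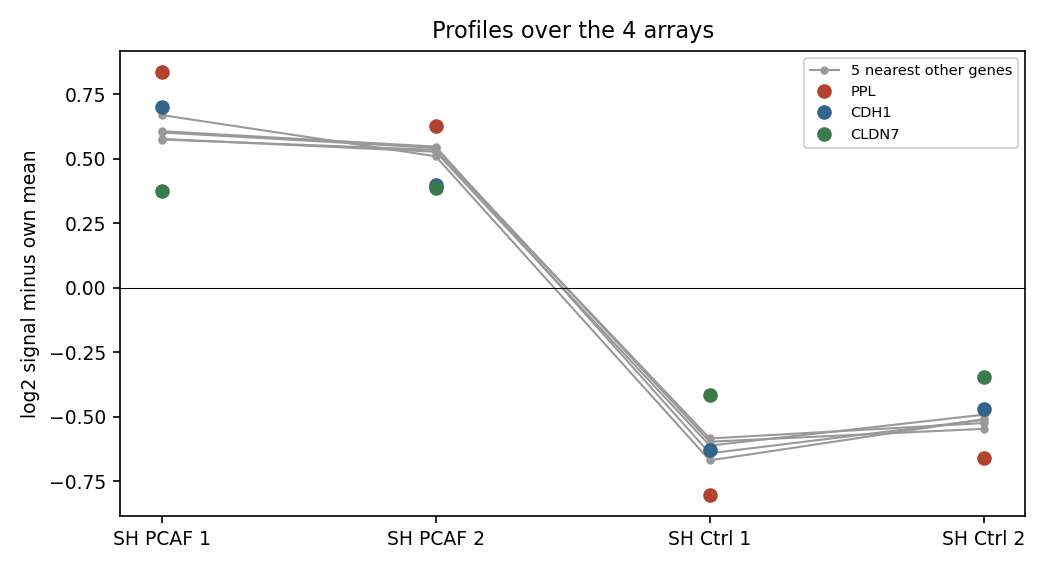
Log2 signal minus its own mean over the 4 arrays for PPL, CDH1 and CLDN7 (coloured points) and for the 5 other genes nearest to their mean profile (grey lines). CDH1 runs close to the grey lines, PPL lies outside them and CLDN7 inside them.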

How the data were processed

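The authors deposited log2 signals of 33297 probe sets from 4 single-colour Affymetrix arrays, 2 SH PCAF and 2 SH Ctrl, grouped by their titles. The submitters' processing notes name Affymetrix Expression Console and limma, with no role, and how signals were summarized and normalized is not given in the sources used here. The log2 scale was read from the values (3.62 to 14.21). The p-values and the values headed fold change come from the authors' deposited table, per the file headers, which is also the source of gene symbols: 688 of its 852 symbols were current in RefSeq (GRCh38.p14), 122 were updated through a synonym, 12 matched several genes and 30 none.

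SH PCAF minus SH Ctrl was fitted over all probe sets with limma 3.58.1 in R 4.3.3 (lmFit, eBayes, no covariate, no further normalization or filter), with Benjamini-Hochberg adjustment and a threshold of 0.05, and checked on simulated arrays. Errors of differences are moderated standard errors with 2.73 prior and 2 residual degrees of freedom. The number of arrays limits the precision, and background was not measured. The 4 arrays had medians of 7.02 to 7.10 and correlated at 0.995 and 0.997 within groups and 0.987 to 0.989 between them.

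The genes, the lists and the rules were chosen with earlier results of these data known. The text names every gene of the rule, the list genes found in the table, and the 5 genes with the nearest profile. A further hemidesmosome gene was taken off its list and is not reported here. Probe sets with several symbols were given to no single gene. Alternatives were quantile normalization, median centring, the brighter probe sets alone, the replicate number as a block, a trended robust prior, array weights, an unequal-variance test, and leaving out each array.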

Additional observations from a re-analysis of the deposited data

How the results depend on the processing

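PPL, CDH1 and CLDN7 kept a positive log2 difference under each of the 10 alternatives for which it was recorded: 1.36 to 1.57 for PPL, 0.95 to 1.25 for CDH1 and 0.72 to 0.82 for CLDN7. Leaving out each array in turn, the median of the 3 genes ran from 0.95 without SH PCAF replicate 1 to 1.25 without SH PCAF replicate 2. In the same fits the genes of the 3 called higher numbered 0 to 3, the probe sets called higher 0 to 1227 and those called lower 0 to 1142, with the 0 reached when either SH Ctrl array was left out. Without SH PCAF replicate 1 the calls were 1227 higher and 706 lower, and without SH PCAF replicate 2 they were 1221 higher and 1142 lower, with the 3 genes among the higher in both. The unequal-variance test with Benjamini-Hochberg adjustment called 0 of the 3 genes, 0 probe sets higher and 0 lower, although 3870 probe sets, the 3 genes among them, had an unadjusted p below 0.05 in it. By limma on all arrays 2346 probe sets were higher and 1948 lower, and after median centring 3012 and 1419. The replicate numbers are not stated to mark shared cultures, and the deviations of the replicate 1 arrays correlated at 0.254 between groups. With the replicate number as a block, 2454 probe sets were called higher and 2130 lower, the 3 genes stayed among those higher, and the median of the 3 was 1.10. With 2 arrays per group and no background measurement, the precision of every value is low.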

Other observations

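A probe set listed under 5 symbols, among them KRTAP2-1, KRTAP2-2, KRTAP2-3 and KRTAP2-4, genes of hair keratin-associated proteins, lies just outside the rule for keratin genes and was noticed after its values were seen. It averaged 10.98 ± 0.035 in SH PCAF cells and 10.19 ± 0.026 in SH Ctrl cells (log2 signal, SD, n = 2 each), a log2 difference of 0.79 ± 0.068 (moderated SE). Its arrays did not overlap between groups, as in 23.1% of all probe sets in this direction. It belongs to no single gene, and it is not a keratin. None of the 12 protein-coding genes nearest to PPL, CDH1 and CLDN7 on their chromosomes, 2 on each side of each gene, was in the authors' deposited table. They include CDH3, the gene of P-cadherin beside CDH1, and ELP5 beside CLDN7. Absence from the authors' deposited table is no measurement of them.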
